A study of Mus musculus with 240 samples.

Results

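Bulk RNA profiles of mutant and wild-type oligodendrocyte precursor cells (OPCs) were compared in mice 12 days after the start of tamoxifen. The mutant group (CKO in the labels) had the genotype Trp53-/- Nf1-/-, and the control group was wild-type (WT). Libraries were chosen by their titles, and libraries that carried the same animal number were summed, which left 7 CKO animals (4 females and 3 males) and 5 WT animals (2 females and 3 males). These 12 animals, from 13 libraries, are part of 37 animals with bulk libraries and of 240 libraries in the series. Cells whose titles carry the mark tdTpositive were cut by laser capture from frozen brain sections of 10 µm, and their RNA was amplified linearly with T7 polymerase before the cDNA was sheared. The time label of both groups counts from the start of tamoxifen. The driver of the Cre recombinase, the strain background of either group, the age of the mice and the number of captured cells are not given in the sources used here. The counts are per gene, so they do not separate deleted from retained exons.

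OPCs are the dividing glial cells of the adult brain that give rise to myelinating oligodendrocytes. They divide in response to platelet-derived growth factor, whose receptor is encoded by Pdgfra, and on their way to becoming oligodendrocytes they pass through a committed state marked by Gpr17, Bcas1 and Enpp6. Nf1 encodes neurofibromin, which switches RAS proteins off and so limits the signal from growth factor receptors to ERK, and Trp53 encodes the p53 protein, which turns on genes for cell cycle arrest and cell death after damage. Loss of both in OPCs is a known route to glioma in mice.

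Totals, in M (1000000 counts), ran from 2.41 to 27.8 M in CKO animals (median 16.0 M) and from 3.04 to 10.7 M in WT animals (median 3.47 M), so depth moved with genotype. The 20 OPC markers of a fixed list were all detected well enough to be tested and summed to 3458 to 5185 CPM (counts per 1000000) in CKO and 3710 to 5469 CPM in WT animals. Neuron markers (19 tested genes) summed to 10097 to 13681 CPM in CKO and 11652 to 13038 CPM in WT. Whether this RNA came from other brain cells in the captured material was not tested. In such bulk samples fewer cells of a type and less RNA per cell cannot be told apart. On the first principal component (20.0% of the variance) every CKO animal lay at or under -6.01 and every WT animal at or above 7.54. The WT animals also differed along it. WT_22178 and WT_22056 (8.59 and 10.7 M) lay at 7.54 and 15.1. WT_22180, WT_22280 and WT_22281 (3.04, 3.47 and 3.19 M) lay at 43.9, 35.1 and 42.7. Animal CKO_21725, the shallowest of its group, stood apart on that component at -68.97, and CKO_22017 stood apart on the next (15.1% of the variance) at -82.3.

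The quasi-likelihood test of edgeR was run on 14418 genes, and 92 of them (0.638%) had an adjusted p under 0.05. Of these, 19 were higher in CKO (0.132%) and 73 were lower (0.506%). Without a correction for the number of genes, 967 genes were higher (6.71%) and 1217 were lower (8.44%) at p under 0.05, and the median log2 change of all tested genes was 0.01. The list of calls rested on single animals. Without CKO_21725, CKO_22208, CKO_22210, CKO_22363 or CKO_22364 it held 13, 10, 30, 6 and 18 genes, and without WT_22056, WT_22180, WT_22280 or WT_22281 it held 57, 7, 5 and 6. Without CKO_22017 it grew to 257 genes and without WT_22178 to 242, and without CKO_21724 it held 70. Only Nf1, Tuba1c, Gm19087 and Gm8822, all lower in CKO, were called in all 12 of these fits, and 15 genes were called in 6 or more. The groups overlapped for Gm19087, a processed pseudogene, at 2.79 to 7.13 CPM in CKO and 4.02 to 171 CPM in WT. Its log2 change was 1.32 (SE 1.58) in other animals at 90 days. DESeq2 called 459 genes with the same animals and genes, among them all 92, and limma's voom with sample weights called 486, also with all 92 among them. A fit of females alone called 57 genes and one of males alone 7.

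Nf1 (ENSMUSG00000020716, chr11:79339693-79581612, GRCm38), the targeted RAS regulator, was lower in CKO. Its level was 176, 182 and 217 CPM (lowest, median and highest) in the 7 CKO animals, and 361, 352, 314, 286 and 265 CPM in WT_22056, WT_22178, WT_22180, WT_22280 and WT_22281, the order kept for WT values below. Every CKO animal lay under every WT animal. The log2 change was -0.70 (SE 0.10, edgeR adjusted p = 0.0102), from 192 ± 16.6 CPM (SD, n = 7) against 316 ± 41.3 CPM (SD, n = 5). Evi2a, Evi2b and Omg lie on the opposite strand within Nf1, and reads of overlapping genes are separated only where the counting used strand, which the sources used here do not state. Nf1 was not called in females alone (-0.51, adjusted p = 0.266), in males alone (-0.86, adjusted p = 0.0825), with all 37 animals in the fit (-0.67, adjusted p = 0.0918) or in the 2 CKO animals within the WT depth range (-0.49, adjusted p = 0.734). Over all alternatives its adjusted p ran from 5.45e-08 (DESeq2) to 0.734.

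Trp53 (ENSMUSG00000059552, chr11:69580359-69591873) had 26.4, 32.6 and 36.8 CPM (lowest, median and highest) in CKO and 37.6, 44.7, 23.4, 32.5 and 25.1 CPM in WT animals. The groups overlapped, and the log2 change was -0.02 (SE 0.16, edgeR adjusted p = 0.970). Of 23 tested p53 target genes, 16 were higher and 7 lower in CKO, with a median log2 change of 0.06. At an unadjusted p of 0.05, 1 was higher (6.71% of all tested genes) and 1 lower (8.44%). Of all tested genes 0.132% were called higher. One target passed the threshold, Zmat3 (ENSMUSG00000027663, chr3:32334792-32366014), an RNA-binding zinc finger protein that p53 induces. It was at 145, 168 and 192 CPM in CKO and at 125, 129.9, 105, 129 and 109 CPM in WT animals, with no overlap. Its log2 change was 0.48 (SE 0.10, edgeR adjusted p = 0.0452), called in 3 of the 12 fits that left out an animal. The targets Cdkn1a, the cell cycle inhibitor p21, and Mdm2, the ubiquitin ligase that degrades p53, had log2 changes of 0.27 (SE 0.16) and 0.17 (SE 0.14), and neither was called. Gadd45a, a stress-induced gene, had -1.06 (SE 0.29, unadjusted p = 0.0023, adjusted p = 0.11 with edgeR).

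**Figure D1:**
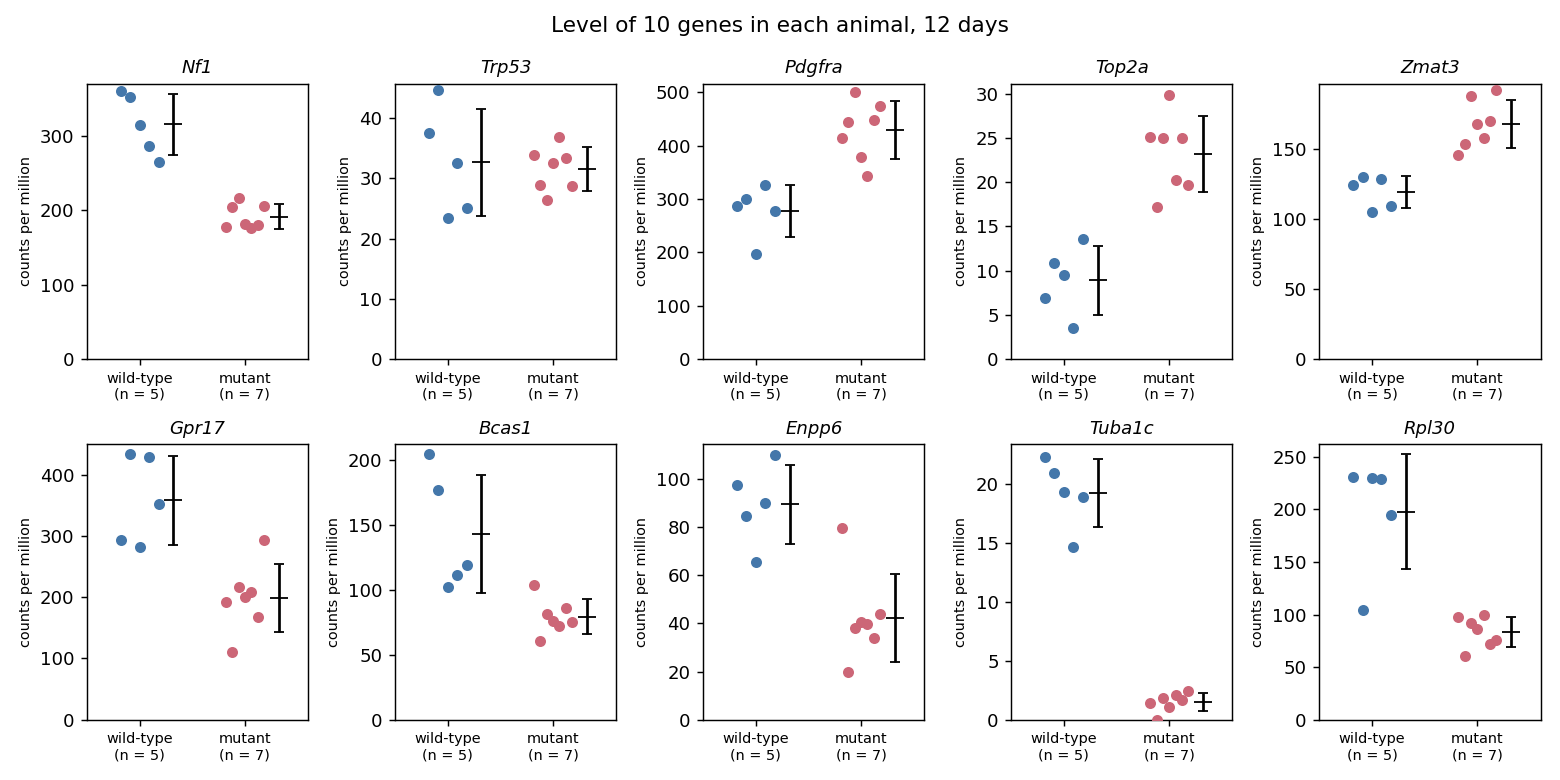
Level of 10 genes in each animal at 12 days in CPM (vertical axes, from 0); each point is 1 animal, WT in blue and CKO (mutant) in red, and the bar beside the points gives the mean and SD. Nf1 of every CKO animal (217 CPM at most) lies under every WT animal (265 CPM at least), while Trp53 overlaps between the groups.

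Mitosis genes were the list with the largest median rise. Of 24 tested, 22 were higher in CKO and 14 of those passed an unadjusted p of 0.05 (6.71% of all tested genes). The median log2 change was 0.90 against 0.01 over all tested genes. The medians without single animals were 0.81 to 1.07, those of females and males alone 0.71 and 1.03, and after thinning every animal to the smallest total 0.84. Over the list, the mean log2 CPM of single animals was 2.06 to 2.72 in CKO and 1.14 to 2.20 in WT. The overlap came from WT_22281 (2.20), which lay above CKO_21725 (2.06). In 4 of the 24 genes every CKO animal lay above every WT animal, as in 0.749% of all tested genes.

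Top2a (ENSMUSG00000020914, chr11:98992943-99024189), the topoisomerase that untangles chromosomes before they separate, was the member called. It stood at 17.2, 25.0 and 29.8 CPM in CKO (lowest, median and highest) and at 6.89, 10.9, 9.51, 3.51 and 13.6 CPM in WT animals. No WT animal reached the lowest CKO animal. The log2 change was 1.40 (SE 0.26, edgeR adjusted p = 0.0335), and 3 of the 12 fits without an animal called it (1.17 to 1.68 on the log2 scale). Prc1, which bundles microtubules for cell division, and Tpx2, a spindle assembly factor, were next (1.70, SE 0.38, and 1.51, SE 0.34, edgeR adjusted p = 0.057 each), and neither overlapped between the groups. Aurkb, the kinase of the chromosomal passenger complex, had 1.65 (SE 0.50), Cdk1, the kinase that starts mitosis, 1.40 (SE 0.39) and Mki67, a widely used marker of cycling cells, 0.96 (SE 0.30), all with adjusted p above 0.1. Anln and Kif23, both needed for cytokinesis, were the members below 0, at -0.28 (SE 0.19) and -0.21 (SE 0.45). Outside the list and the rule for naming genes, and named after its values were seen, was Kntc1 (ENSMUSG00000029414, chr5:123749716-123821593), a kinetochore protein of the spindle checkpoint. It was at 2.41, 2.94 and 5.25 CPM in CKO and at 0.886, 0.473, 1.02, 0.879 and 1.24 CPM in WT, with no overlap (log2 change 1.98, SE 0.40, edgeR adjusted p = 0.037; called in 2 of the 12 fits).

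Genes of DNA replication, which act before mitosis, moved less. Of 25 tested, 20 were higher, 5 of them at an unadjusted p of 0.05 (6.71% of all tested genes). At that p 1 was lower (8.44% of all tested genes), and 0 were called with edgeR or DESeq2. The median log2 change was 0.33, which fell to 0.08 among genes with a mean of at least 10 CPM and to 0.09 after thinning. Cdt1 and Cdc6, which load the replicative helicase, had 1.22 and 0.95, and Pcna, the sliding clamp of the polymerase, had -0.37. Among 17 tested regulators of the G1 phase the median was 0.04, with 3 higher and 1 lower at an unadjusted p of 0.05. Cdk6, a G1 kinase, was the only one called and was lower, at 5.07, 9.21 and 12.8 CPM in CKO against 11.2, 17.4, 19.4, 16.4 and 16.1 CPM in WT animals. Its groups overlapped at WT_22056, and it was called in 1 of the 12 fits (log2 change -0.98, SE 0.21, edgeR adjusted p = 0.0499). Ccnd1, the cyclin D1 that partners it, had 0.48 and the kinase inhibitor Cdkn2c 0.96, neither of them called.

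The mitosis promoters are shown because the members moved together. Genes of late cell cycle phases often carry 2 short motifs bound by the NF-Y factor and by the DREAM and MuvB complexes, the CCAAT box (letters CCAAT) and the cell cycle homology region (CHR, letters TTTGAA). Both were searched on both strands in the 250 bases before the RefSeq starts (GRCm38.p6). Of the 25 mitosis genes, 21 had a promoter in the RefSeq set, 17 of which (81.0%) held a CCAAT box and 8 (38.1%) a CHR. Of the 32851 windows of this length in the RefSeq set 33.8% held a CCAAT box and 16.0% a CHR, against 81.8% and 36.4% of the 22 windows of mitosis genes. By gene, 37.5% and 18.3% of 27025 genes held them. Of 14 committed precursor genes 4 held a CCAAT box and 0 a CHR, and of 32 ribosomal protein genes 10 and 2. The windows of Top2a (chr11:99024190-99024439, minus strand, with 6 CCAAT boxes and 2 CHR), Kntc1 (chr5:123749476-123749725, plus strand, with 2 and 1) and Cdk1 (chr10:69352913-69353162, minus strand, with 3 and 2) are printed below with both motifs, in either orientation, in capitals. At the end of the Kntc1 window the 2 motifs share a base.
Top2a: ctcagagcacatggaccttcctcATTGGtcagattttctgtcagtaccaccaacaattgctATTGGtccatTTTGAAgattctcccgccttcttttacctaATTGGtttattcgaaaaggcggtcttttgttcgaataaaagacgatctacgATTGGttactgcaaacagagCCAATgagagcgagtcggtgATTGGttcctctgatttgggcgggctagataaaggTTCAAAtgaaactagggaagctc
Kntc1: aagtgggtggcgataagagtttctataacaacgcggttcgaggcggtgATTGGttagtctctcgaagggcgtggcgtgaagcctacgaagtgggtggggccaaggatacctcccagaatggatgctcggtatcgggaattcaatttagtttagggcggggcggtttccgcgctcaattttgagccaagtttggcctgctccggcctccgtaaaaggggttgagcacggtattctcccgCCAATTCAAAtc
Cdk1: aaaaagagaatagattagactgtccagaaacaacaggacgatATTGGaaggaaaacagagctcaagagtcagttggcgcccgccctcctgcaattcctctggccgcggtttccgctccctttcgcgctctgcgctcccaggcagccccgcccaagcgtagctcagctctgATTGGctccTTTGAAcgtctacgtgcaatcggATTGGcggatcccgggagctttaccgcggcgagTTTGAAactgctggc
A match of letters is a description of the sequence and not of binding, which was not measured here.

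**Figure D2:**
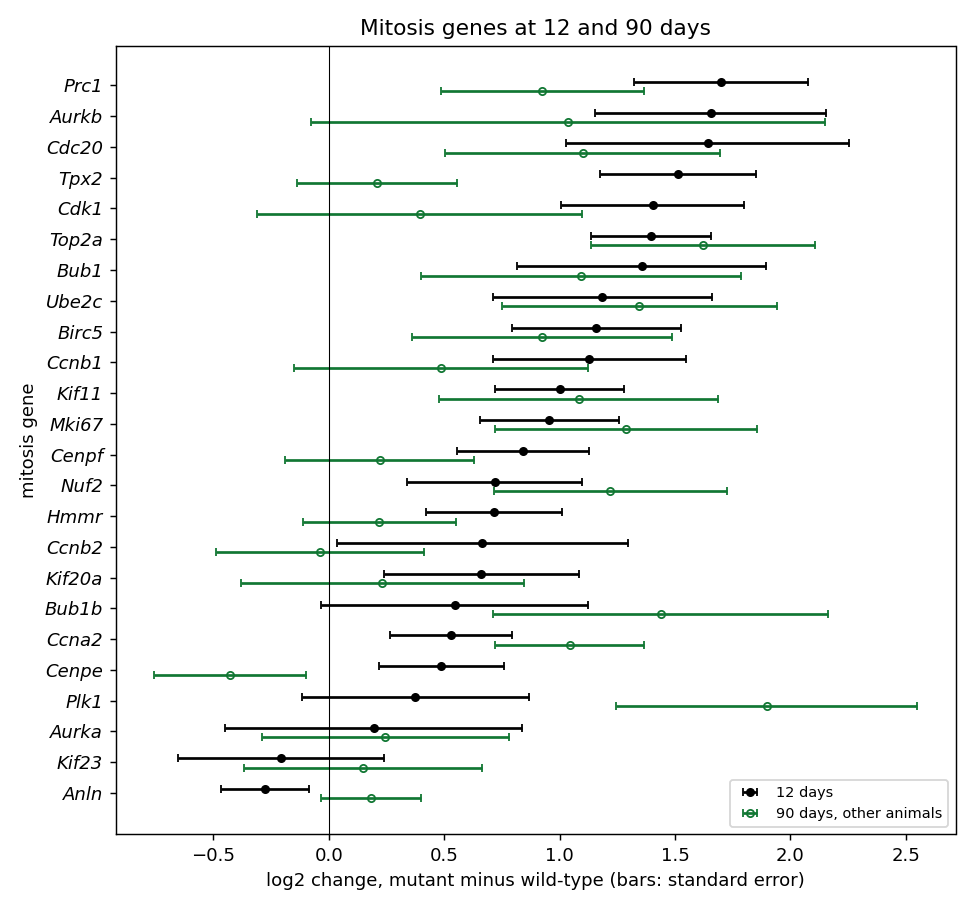
Log2 change of CKO against WT (horizontal axis) with its standard error for the 24 tested mitosis genes (vertical axis, sorted by the change at 12 days); filled points are the animals at 12 days and open points the other animals at 90 days. At 12 days 22 of the 24 genes lie above 0, and 20 lie above 0 at both times.

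Growth factor signalling was examined next. Pdgfra (ENSMUSG00000029231, chr5:75152292-75198215), the receptor through which OPCs receive their main mitogen, was higher in CKO. It stood at 344, 445 and 501 CPM in CKO (lowest, median and highest) and at 287, 300.2, 197, 326 and 278 CPM in WT animals. All CKO animals lay above all WT animals (log2 change 0.58, SE 0.11, edgeR adjusted p = 0.0335; called in 4 of the 12 fits). Among the 23 tested receptor and ligand genes it was the only one called, and the median was -0.02. At an unadjusted p of 0.05, 1 of these was higher and 4 were lower. Output and feedback genes of the ERK pathway had a median of 0.13, with 11 of 17 higher, 3 of these at an unadjusted p of 0.05, and 0 called with edgeR against 1 with DESeq2. Spry4 and Spry1, feedback inhibitors of receptor tyrosine kinases, had 0.67 (SE 0.17) and 0.66 (SE 0.23), and Etv4, a transcription factor downstream of ERK, 0.90 (SE 0.41). Spry2 and Dusp6, which have the same kind of role, had -0.05 and 0.14. The RAS pathway list (27 tested) had a median of 0.08 and the PI3K and mTOR list (23 tested) one of 0.10. With edgeR 0 genes of either list were called, against 1 and 0 with DESeq2. At an unadjusted p under 0.05, 2 RAS pathway genes were higher and 3 lower. For the PI3K and mTOR genes these counts were 2 and 1. Of all tested genes 6.71% were higher and 8.44% lower at that p.

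Genes of the committed precursor state were lower in CKO. Of 15 tested, 14 were lower, 11 of them at an unadjusted p of 0.05 (8.44% of all tested genes). Called lower were 2, against 0.506% of all tested genes. The median log2 change was -0.48, from -0.53 to -0.38 without single animals, -0.42 in females and -0.59 in males alone. List means of single animals were 4.25 to 5.04 log2 CPM in CKO and 4.98 to 5.50 in WT.

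Enpp6 (ENSMUSG00000038173, chr8:46986887-47096762), a choline phosphodiesterase of newly formed oligodendrocytes, was at 19.7, 39.8 and 79.8 CPM in CKO and at 97.6, 84.8, 65.5, 89.9 and 109.9 CPM in WT. Only CKO_21724, at 79.8 CPM, reached into the WT range (log2 change -1.16, SE 0.22, edgeR adjusted p = 0.0335; called in 3 of the 12 fits). Bcas1 (ENSMUSG00000013523, chr2:170346991-170427845), a marker of early myelinating cells, was at 60.5, 75.7 and 104 CPM in CKO and at 204, 177, 102, 111 and 119 CPM in WT. The highest CKO animal passed the lowest WT animal, and the WT animals spread more widely (log2 change -0.85, SE 0.18, edgeR adjusted p = 0.048; called in 2 of the 12 fits). Of the rest, Tcf7l2, a transcription factor of oligodendrocyte differentiation, had -0.72 (SE 0.17, edgeR adjusted p = 0.073), Cnksr3 -1.42 (SE 0.38) and Myrf, the regulator of myelin genes, -0.38. Itpr2, a calcium release channel, was the one gene above 0, at 0.10.

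OPC markers as a list were balanced, with 10 of 20 higher and a median of -0.01. At an unadjusted p of 0.05, 2 were higher (6.71% of all tested genes) and 5 lower (8.44%). Beside the rise of Pdgfra, 2 members were called lower, against 0.506% of all tested genes. Gpr17, the receptor of the committed state, was at 111, 200.01 and 294 CPM in CKO and at 294, 433, 281, 429 and 351 CPM in WT, where the highest CKO animal met the lowest WT animals (log2 change -0.90, SE 0.17, edgeR adjusted p = 0.0335). Lims2, on the opposite strand at the same place, also had a negative change (-0.61), and reads of the 2 genes may not be separated. Neu4, a sialidase, was at 36.0, 54.2 and 67.0 CPM in CKO and at 57.9, 73.4, 71.0, 85.2 and 83.3 CPM in WT (log2 change -0.60, SE 0.11, edgeR adjusted p = 0.0335), with overlap at WT_22056. Gpr17 was called in 4 and Neu4 in 5 of the 12 fits. The transcription factors Olig1, Olig2 and Sox10, which set OPC identity, had log2 changes of 0.02, -0.05 and -0.27, and none was called. Myelin genes, 6 of 18 of which were higher, had a median of -0.14, which was 0.22 in females alone.

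Neural progenitor and neuroblast markers were also lower in CKO, 13 of 15 tested, with a median of -0.38. Of these, 10 were at an unadjusted p of 0.05 (8.44% of all tested genes). Sox4, a transcription factor of immature neural cells, was the member called, at 108, 135 and 188 CPM in CKO and at 179, 143, 255, 257 and 267 CPM in WT animals. WT_22178 and WT_22056 lay within the CKO range (log2 change -0.71, SE 0.14, edgeR adjusted p = 0.0335; called in 4 of the 12 fits). Sox2 had -0.60, Dlx2 -0.56 and Sox11 -0.48, all at adjusted p above 0.05. Prom1 is on this list and on the committed list.

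**Figure D3:**
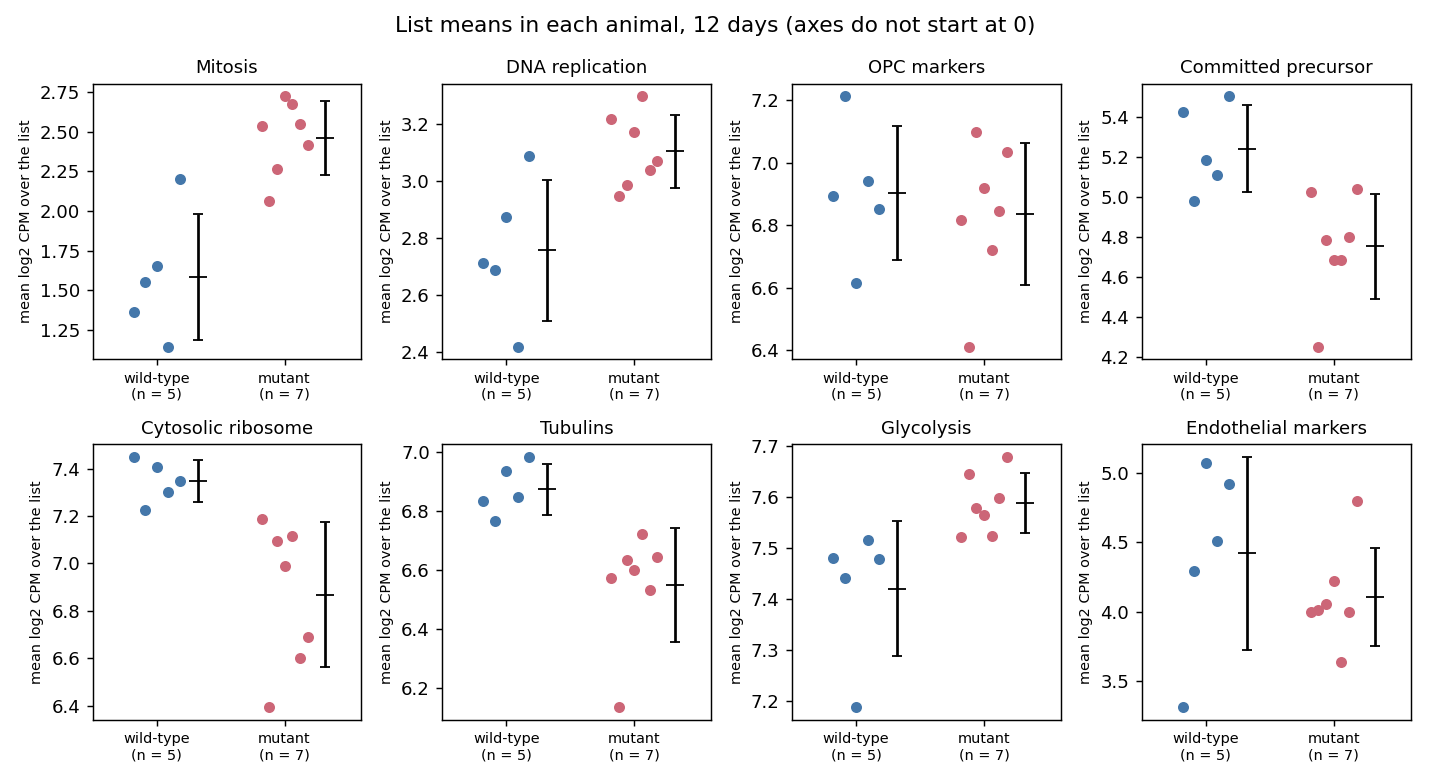
Mean log2 CPM over the genes of 8 lists in each animal at 12 days (vertical axes, which do not start at 0); WT in blue, CKO (mutant) in red, bars give the mean and SD. The ribosome and tubulin means do not overlap and are lower in CKO, the glycolysis means do not overlap and are higher, and the mitosis means overlap at WT_22281 and CKO_21725.

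Cytosolic ribosomal protein genes were lower as a group. Of 44 tested, 42 were lower, 28 of them at an unadjusted p of 0.05 (8.44% of all tested genes) and 4 called (0.506%). Ribosomal protein genes outside this list that were called lower are given below. The median log2 change was -0.42 (-0.48 to -0.35 without single animals). In 11 genes every CKO animal lay under every WT animal, as in 0.721% of all tested genes. List means were 6.39 to 7.19 log2 CPM in CKO and 7.22 to 7.45 in WT and did not overlap. Rpl30 (ENSMUSG00000058600, chr15:34440505-34443640), a protein of the large subunit, was at 60.5, 86.5 and 99.3 CPM in CKO and at 231, 104, 230.2, 229 and 194 CPM in WT. The groups did not overlap, but WT_22178, at 104 CPM, lay near the CKO animals (log2 change -1.25, SE 0.18, edgeR adjusted p = 0.0102; called in 11 of the 12 fits). Rplp1, a protein of the ribosomal stalk, was at 149, 204 and 288 CPM in CKO and at 494, 324, 435, 333 and 327 CPM in WT (log2 change -0.89, SE 0.17, edgeR adjusted p = 0.0335). Its near-identical gene copy Gm10073 was called lower too (-1.55, SE 0.30, edgeR adjusted p = 0.0335). Rps23 of the small subunit (-0.77) and Rpl27 of the large subunit (-0.75) were the other members called. Translation factors and aminoacyl-tRNA synthetases had a median of -0.02 over 25 genes.

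Transcript length and depth moved with the falls. Genes called lower had a median exonic length of 3307 bases and genes called higher one of 8835 bases, against 4498 bases for all tested genes. The median log2 change was -0.17 for 513 genes under 1000 bases, -0.11 for 1399 genes of 1000 to 2000 bases and 0.05 for 2662 genes of 8000 bases or more. With an offset for length fitted in each animal the count of calls was 78 (17 higher and 61 lower), the median of the ribosomal protein genes -0.32 and that of the committed genes -0.48. Thinning to the smallest total gave 111 calls, a ribosomal median of -0.41 and a committed median of -0.47. In the 2 CKO animals whose depth lay within the WT range, against all 5 WT animals, the medians were -0.18 for ribosomal protein, -0.35 for committed and 0.71 for mitosis genes, with 9 calls. Among WT animals, WT_22178 lay at or under the highest CKO animal in 32 of the 73 genes called lower, against 9 for WT_22056, 6 for WT_22180, 1 for WT_22280 and 0 for WT_22281. The 3 last had the lowest WT totals (3.04 to 3.47 M). Of the 92 called genes, 31 have a near-identical copy among the other annotated genes, so that their reads may be split or shared. A copy had an identity of 95% or more across 50% or more of the shorter of both transcripts. Copies were not searched for the genes that were not called, so the share among all tested genes is not known here.

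Tubulins gave the fall with the smallest adjusted p among the lists. Tuba1c (ENSMUSG00000043091), an alpha tubulin (chr15:99029891-99038105 in the deposited table), was at 0, 1.69 and 2.42 CPM in CKO (lowest, median and highest) and at 22.2, 20.9, 19.4, 14.6 and 18.9 CPM in WT. The groups were far apart in every animal. The log2 change was -3.58 (SE 0.33, edgeR adjusted p = 2.02e-04), and the gene was called in all 12 fits without an animal and in 14 of 14 alternatives that tested it. At 90 days, in other animals, the change was -4.01 (SE 0.58, edgeR adjusted p = 0.0173). Tubb2b, a beta tubulin of young neural cells, was at 79.4, 166 and 194 CPM in CKO and at 247, 223, 460.4, 369.9 and 404 CPM in WT. It did not overlap between the groups either (log2 change -1.22, SE 0.21, edgeR adjusted p = 0.029; called in 5 of the 12 fits). The other 12 tubulins had log2 changes from -0.69 (Tubb2a) to 0.62 (Tubb6 and Tubg1), and the list median was -0.06. Without Tuba1c the list means of the remaining 13 genes overlapped, at 6.80 to 7.15 log2 CPM in CKO and 6.95 to 7.19 in WT.

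Tuba1c has near-identical neighbours, Tuba1b (99.4% identity of transcripts where they align) and Tuba1a (98.5%), and processed copies on other chromosomes. Over the 1347 coding bases Tuba1b was 98.1% and Tuba1a 97.3% identical to Tuba1c, with 25 and 37 differing bases. Reads from stretches that the 3 genes share cannot be told apart. Tuba1b had a log2 change of 0.09 and Tuba1a one of -0.32, neither called. Gm8822 (ENSMUSG00000082319, a processed pseudogene, chrX:81820384-81822730) showed a like pattern and, outside the rule for naming, was named after its values were seen. It had 0, 0 and 0.724 CPM in CKO (lowest, median and highest) against 9.45, 15.8, 16.3, 16.1 and 14.2 CPM in WT (log2 change -7.12, SE 0.69, edgeR adjusted p = 2.02e-04). Among its near-identical copies, Actr3 (98.8% identity), a subunit of the actin-branching ARP2/3 complex, had a log2 change of 0.25. Whether CKO and WT mice share a strain background is not given in the sources used here, and its part in the values of Tuba1c and Gm8822 was not tested.

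Glycolysis genes were slightly higher. Of 18 tested, 14 were higher, 4 of them at an unadjusted p of 0.05 (6.71% of all tested genes), with a median of 0.10. Their list means did not overlap, but nearly met, at 7.52 to 7.68 log2 CPM in CKO and 7.19 to 7.52 in WT. Pfkp (ENSMUSG00000021196, chr13:6579768-6648777), an isoform of the phosphofructokinase that commits glucose to glycolysis, was called. It was at 419.6, 483 and 693 CPM in CKO and at 387, 484, 383, 339 and 322 CPM in WT, where WT_22178 lay among the CKO animals (log2 change 0.56, SE 0.09, edgeR adjusted p = 0.0249; called in 7 of the 12 fits). Pkm, the last kinase of the pathway, had 0.36 (edgeR adjusted p = 0.076) and Ldha, which turns pyruvate into lactate, 0.29. Over all 43 lists, the means of 1 list were higher and of 2 lists lower without overlap, and 40 overlapped.

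Other genes with the largest rises included Metap1d (ENSMUSG00000041921, chr2:71453276-71525194), a mitochondrial methionine aminopeptidase. It was at 54.8, 79.1 and 86.6 CPM in CKO and at 54.4, 29.7, 21.7, 22.8 and 24.1 CPM in WT. WT_22056 came within 1 CPM of the lowest CKO animal and the other WT animals lay far under it (log2 change 1.30, SE 0.22, edgeR adjusted p = 0.0258; called in 6 of the 12 fits). Mmp15 (ENSMUSG00000031790, chr8:95352268-95375080), a membrane-anchored metalloproteinase, was at 42.4, 65.3 and 77.7 CPM in CKO and at 40.3, 40.9, 26.1, 34.8 and 25.7 CPM in WT (log2 change 0.98, SE 0.16, edgeR adjusted p = 0.0249). Neither gene overlapped between the groups. The other named rises were Fam212b (0.75), Gal3st3 (0.74), Tspoap1 (0.72), Glo1 (0.63), Vps13c (0.61), Txndc11 (0.60), Neurl1b (0.52), Cpne8 (0.52), Eml5 (0.49) and Dclk1 (0.37). Of these, Glo1 detoxifies methylglyoxal, Vps13c carries lipids between organelles and Dclk1 is a kinase that binds microtubules. Of the 19 genes called higher, 15 did not overlap between the groups, against 0.749% of all tested genes. The calls were made in the same animals, so little overlap follows from how these genes were chosen.

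The largest falls also included genes on none of the 43 lists. Among these were Gm10012 (-1.62), Slx1b (-1.37), Wtap (-1.28), Retreg1 (-1.27), Tceal1 (-1.25), Sptssa (-1.20), Rps27rt (-1.17), Rpl34 (-1.16), Hspa2 (-1.10), Arhgap5 (-0.99) and Sp9 (-0.96). Rpl34 and Rps27rt carry names of ribosomal protein genes but were not on the ribosomal list. Neither were Rps13 (-0.95), Rpl36a (-0.86), Rps27a (-0.64) and Rps15a (-0.56), which lie outside the rule for naming and were called lower too. Slx1b, a subunit of a DNA endonuclease, was at 115, 161 and 196 CPM in CKO and at 341, 189.7, 503, 492 and 569 CPM in WT. WT_22178 lay among the CKO animals and the other WT animals lay above all of them (log2 change -1.37, SE 0.21, edgeR adjusted p = 0.0143; called in 8 of the 12 fits). Bola2 and Gm6939 overlap Slx1b. Further list members called lower were Sparcl1, a matrix protein (-0.63), Gabra2, a GABA receptor subunit (-0.59), Sfrp1, a secreted Wnt antagonist (-0.78), Psma3, a proteasome subunit (-0.51), and Snrpd1, a spliceosome core protein (-0.79). In 31 of the 73 genes called lower the groups did not overlap, against 0.721% of all tested genes. Here too the genes were chosen by a test in the same animals.

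Markers of other cell types were measured beside these lists. All 16 endothelial markers were lower in CKO, with a median of -0.46 and 2 at an unadjusted p of 0.05 (8.44% of all tested genes). With edgeR 0 were called, against 1 with DESeq2. Their summed level was 327 to 661 CPM in CKO and 312 to 794 CPM in WT, so the animals overlapped. Pericyte, smooth muscle and fibroblast markers had a median of -0.33 (13 of 17 lower; sums of 276 to 737 CPM in CKO and 377 to 804 CPM in WT). Microglia markers had -0.22 (15 of 18 lower; 346 to 574 and 429 to 508 CPM), astrocyte markers -0.13 (12 of 16 lower; 3499 to 4482 and 3735 to 5157 CPM) and neuron markers 0.05. In females and males alone the medians were 0.10 and -0.44 for microglia, 0.17 and -0.31 for astrocyte and -0.14 and 0.18 for neuron markers. Those of pericyte, smooth muscle and fibroblast markers were -0.04 and -0.60, and of endothelial markers -0.42 and -0.37. Of 15 blood markers 2 passed the filter, with a median of 0.39 and sums of 7.23 to 24.8 CPM in CKO against 6.44 to 18.3 CPM in WT. Of these markers only Ly6g, a blood marker, had 0 counts in all 12 animals. The part of these cells in the changes above was not tested.

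The remaining lists had medians between -0.36 and 0.13 and few calls. The higher ones were voltage-gated channels (0.13), repair genes (0.08), chromatin regulators (0.05), Wnt genes (0.05), cholesterol synthesis (0.04), glutamate and GABA receptors (0.04), apoptosis (0.03) and MYC partners (0.03), and matrix genes and the proteasome stood at 0.00. Lower were lysosome (-0.08), unfolded protein response (-0.10), Notch and BMP genes (-0.11), respiratory chain subunits (-0.12), actin and its regulators (-0.14), splicing factors (-0.16), axon guidance (-0.18), immediate early genes (-0.19), interferon genes (-0.24), chaperones (-0.31) and MHC genes (-0.36). For the chaperones the median was -0.16 after thinning and -0.19 with the length offset. Immediate early genes ran from -0.40 to 0.14 without single animals. In the median plot these lists lie in the middle, with the mitosis list at one end and the committed, endothelial and ribosome lists at the other.

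**Figure D4:**
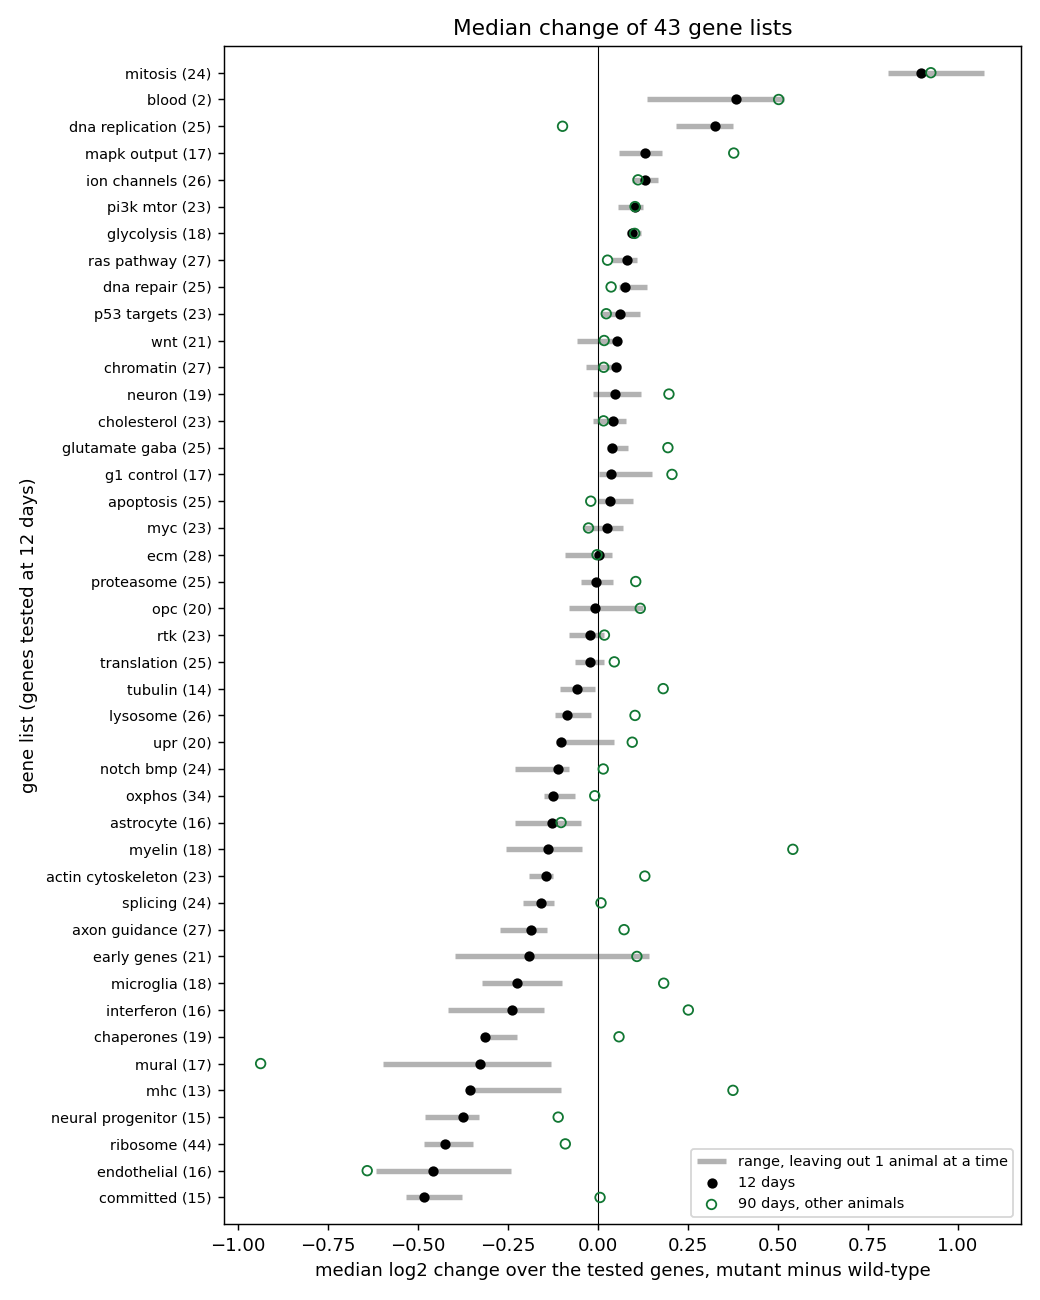
Median log2 change of CKO against WT (horizontal axis) over the tested genes of each of 43 lists (vertical axis, number of tested genes in brackets); filled points are the 12-day animals, grey bars the range of medians when 1 animal was left out, and open points other animals at 90 days. The mitosis median is 0.90 at 12 and 0.93 at 90 days, while the committed median is -0.48 and 0.01.

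The same genotypes were compared at 90 days in 12 other animals, 7 CKO and 5 WT, which share no animal with the 12-day groups. With edgeR 8 of 15153 genes passed there (0.0528%), and 41 with DESeq2. At an unadjusted p under 0.05, 704 genes (4.65%) were higher and 485 (3.2%) lower in CKO there. Of the 19 genes called higher at 12 days, 16 had a positive log2 change at 90 days and 11 of these passed an unadjusted p of 0.05 (median 0.47). Of the 73 genes called lower, 27 had a negative change at 90 days, 8 of them at that p, and the median was 0.07. Among all genes tested at both times 7371 of 14358 had the same sign. Of the 19 genes 1 was called at 90 days, Gm9008 (outside the rule for naming), and of the 73 genes 2, Tuba1c and Gm8822. Each of them has a near-identical copy (for Gm9008, Rnf26 at 99.1% identity), so no gene without such a copy was called at both times. Nf1 had -0.63 at 90 days (SE 0.14, edgeR adjusted p = 0.189), Pdgfra 0.46 (SE 0.16), Metap1d 1.17 (SE 0.20), Top2a 1.62 (SE 0.48) and Zmat3 0.50 (SE 0.20). None of these was called there, with edgeR adjusted p of 0.530 for Pdgfra, 0.0591 for Metap1d, 0.477 for Top2a and 0.586 for Zmat3. Rpl30 had -0.03 (SE 0.23) at 90 days, Enpp6 -0.02 (SE 0.27) and Bcas1 0.05 (SE 0.15), and these were not called there either.

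By list, the mitosis median was 0.93 at 90 days (22 of 24 genes higher, 6 at an unadjusted p of 0.05 against 4.65% of all genes tested, 0 called with edgeR), and 20 of the 24 genes were higher at both times. The committed median was 0.01 (7 of 14 higher), that of ribosomal protein genes -0.09 (10 of 44 higher), of neural progenitor markers -0.11 and of DNA replication genes -0.10. Endothelial and mural markers were lower there too, at -0.64 and -0.94. ERK output genes had 0.38 and myelin genes 0.54. The test of the difference itself, genotype by time with edgeR, called 0 of 15735 genes (1545 at an unadjusted p under 0.05), so no gene can be named as differing between the times. Leaving out WT_21167, the shallowest animal at 90 days with 0.0936 M, also gave 0 calls. A test of genotype by sex at 12 days called 0 of 14418 genes (654 unadjusted).

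**Figure D5:**
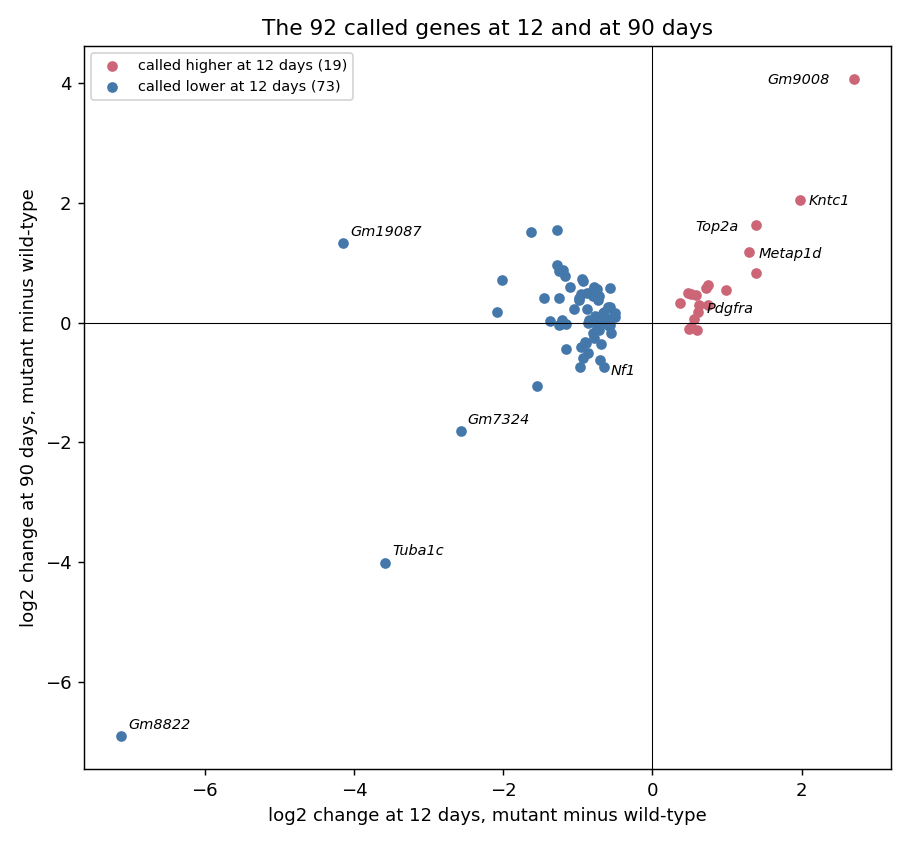
Log2 change of CKO against WT at 12 days (horizontal axis) and in other animals at 90 days (vertical axis) for the 92 genes called at 12 days; each point is 1 gene, red for the 19 called higher and blue for the 73 called lower. Of the red points 16 lie above 0 on the vertical axis, and of the blue points 27 lie below it, with Tuba1c and Gm8822 the farthest down.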

How the data were processed

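Per the submitters' processing notes, the authors used RSEM and Bowtie2 with GRCm38. Versions are not given in the sources used here. They deposited RSEM expected counts per gene (estimated counts, not scaled) in 1 table of 34623 genes and 92 spike-ins, and coordinates are as that table gives them. The 192 columns of small libraries of 10 cells were not used. Libraries of 1 animal were summed and counts rounded. The 12 animals of both groups were fitted alone in edgeR 4.0.16 under R 4.3.3. Low genes were removed with filterByExpr (a minimum count of 10 and a total of 15), totals were scaled by TMM, and genotype was tested beside a term for sex by quasi-likelihood, with Benjamini-Hochberg adjustment and a threshold of 0.05. The common biological coefficient of variation was 0.262. CPM use the TMM-scaled totals, with a prior count of 2 on the log2 scale. The test was tried on counts simulated from the mean levels, totals and fitted spread of these animals. Those counts held no bias from depth or transcript length, so the trial does not address either. Alternatives included DESeq2 1.42.0, limma 3.58.1 with voom, other scalings and filters, thinning, and leaving out each animal.

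The 2 libraries of CKO_22208 correlated at 0.972, pairs of different animals of the same group at 0.957 (median). The 2 libraries differed by more than sampling noise (chi-square over degrees of freedom 17.6). No 2 libraries were identical. The labels give animal numbers, so p-values measure the spread between animals. Named genes are Nf1, Trp53, the 15 rises and 15 falls of largest size among the calls whose mean expression reached the median, and every called member of the 43 lists, and of each list the 2 largest rises and falls could be given as values. The comparison, the members and the lists were chosen with earlier results of these data known, so lists are described by counts and medians, with no test of a list. Exonic lengths, gene overlaps and copies (blastn) come from GENCODE M21. A gene and a sequence that the rules would have named are not reported here.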

Additional observations from a re-analysis of the deposited data

Results flagged for a closer look

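Single animals stood far from the rest of their group in 11 of 180 groups of values looked at (47 named genes and 43 lists, each in CKO and WT), by the gap to the nearest animal relative to the range of the group. Chance alone flags about 1 in 20 groups. Among genes, WT_22056 had a Metap1d level of 54.4 CPM where the other WT animals reached 29.7 CPM at most. WT_22180 had 29.5 CPM of Txndc11 against at least 34.8 CPM in the other WT animals. CKO_21724 had 79.8 CPM of Enpp6 against at most 44.0 CPM in the other CKO animals, and WT_22178 had 104 CPM of Rpl30 against at least 194 CPM in the other WT animals.

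Among lists, as mean log2 CPM, CKO_21725, the shallowest CKO animal, was low for microglia markers (2.96, nearest animal 3.72), tubulins (6.14, nearest 6.53) and Wnt genes (4.52, nearest 4.84). WT_22180, the shallowest WT animal, was low for glycolysis genes (7.19, nearest 7.44). WT_22056, the deepest WT animal, was high for translation genes (6.95, nearest 6.81) and genes of the unfolded protein response (5.39, nearest 5.12). CKO_22017 was high for blood markers (3.15, nearest 1.93).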

How the results depend on the processing

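The 92 calls at 12 days (19 higher and 73 lower) became 463 (134 and 329) with no filter on low counts, 459 (146 and 313) with DESeq2 and 486 (123 and 363) with limma's voom. They became 57 in females alone (43 lower), 7 in males alone (3 and 4), 3 with all 37 bulk animals in the fit (1 and 2) and, in an alternative chosen after seeing the depths, 9 in animals of the shared depth range (2 and 7). In that order, 23, 2, 3 and 2 of the 92 calls were called again. Leaving out 1 animal at a time gave 5 to 257 calls, with 0 to 62 higher and 5 to 196 lower. RLE size factors (88), a floor of 10 CPM on the mean (101), a model without sex (80), the deeper library of CKO_22208 (84), a robust spread (96), thinning (111) and, added after seeing the data, a length offset (78) and protein-coding genes alone (96) stayed within 1.5 times. These settings kept from 70 (a model without sex) to 88 (RLE size factors and protein-coding genes alone) of the 92 calls. At 90 days, 8 calls became 41 with DESeq2, 8 with RLE size factors and 9 without WT_21167. For the 92 called genes no alternative turned a direction: 950 of 1367 values of single genes kept the call and 417 lost it, and without single animals 371 kept it and 733 lost it. Of the list medians, 514 of 516 without single animals and 609 of 644 under other settings moved by less than the spread between animals. That spread is the SD of the list means within groups, and for some lists it exceeds the median, so a median can change sign within it. The interferon median went from -0.24 to 0.17 with a floor of 10 CPM on the mean, within its spread of 0.43. No paired analysis was possible because the groups compared share no animal numbers. The causes of these changes were not tested. The small number of animals, the WT depth of 3.04 to 10.7 M and near-identical copies limit what single genes show.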
